A study of Mus musculus with 12 samples.

Results

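The 9 genes described here encode transcription factors that set helper T cell lineages or the effector state of regulatory T cells (Tregs): Prdm1, Batf, Irf4, Maf, Gata3, Rora, Tbx21, Bcl6 and Id2. They were chosen by name for these roles, with earlier results of these libraries known, so the set is not independent of the data. Each symbol matched a single Ensembl gene, giving 9 of the 21839 genes in the count table, and all 9 passed the filter on low counts that left 11766 genes for testing.

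Tregs suppress the responses of other immune cells and owe their identity to the transcription factor Foxp3. When they are activated, resting Tregs become effector Tregs, a step for which IRF4, BATF and BLIMP-1 (the product of Prdm1) are known regulators. Effector Tregs can also take on factors of the helper lineages: T-bet (Tbx21) is the factor of type 1 helper cells, GATA3 of type 2, RORα (Rora) contributes to type 17, BCL6 directs follicular helper cells, c-MAF acts in follicular, type 17 and interleukin-10 producing cells, and ID2 is an inhibitor of E proteins.

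The study compared the RNA of such cells between mice with and without Atg5, a gene needed for autophagy, in their dendritic cells. All animals were C57BL/6 mice homozygous for a loxP-flanked Atg5 gene (Atg5 flox/flox). TG mice also carried Cre under the CD11c promoter (CD11c Cre +/-), which is active mainly in dendritic cells, and WT mice did not (CD11c Cre -/-), so both genotypes share the flox alleles, and the deletion is not aimed at the sorted T cells. From spleen and inguinal, cervical and brachial lymph nodes, CD4+ CD62L+ cells were sorted as CD25 High or CD25 Low, which gave 4 groups (WT High, TG High, WT Low, TG Low) of 3 libraries each. The gates used surface markers alone per the labels, and CD62L marks mainly resting cells. The ages of the mice and whether the replicates are separate animals are not stated, so the p-values speak to the spread among these 12 libraries, which may be technical.

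Total counts ran from 6767828 (TG High replicate 2) to 23942479 per library. Levels are given as CPM, which scales counts to a common library size with TMM factors (the trimmed mean of M-values). The T cell and Treg genes Cd3e (921 to 1145 CPM) and Foxp3 (983 to 1662 CPM) were present in all 12 libraries, and Il2ra, which encodes CD25, stood at 1072 to 1309 CPM in the High and 481 to 734 CPM in the Low libraries. Atg5 ranged from 32.0 to 41.5 CPM, which does not test the genotype label in cells at which the deletion is not aimed. The 4 libraries numbered 1 stood apart from the other 8: 3239 of 11766 tested genes (27.5%) differed between them by edgeR. Libraries of the same number varied together across groups, so each comparison was fitted both ways, leaving the number out and adding it as a replicate block.

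Promoter sequence of the 250 bases before a transcription start was held by RefSeq (GRCm38.p6) for 8 of the 9 genes, in 9 windows, with no entry for Maf. Because 8 of the 9 members were called higher in the libraries numbered 1, the windows were searched on both strands for known motifs. These were TGANTCA (AP-1, bound by BATF with JUN partners) and a repeated GAAA motif of IRF factors (spaced by any 2 bases). The others were TTCNNNGAA of STAT factors, TCACACC of T-box factors and AGATAA of GATA3 and its relatives. Of 32851 promoter windows in RefSeq, 6.75% held the AP-1, 2.98% the IRF, 7.02% the STAT, 3.33% the T-box and 9.99% the GATA letters. The AP-1 letters were found in the Prdm1 window alone, the GATA letters in the Batf window alone, the STAT letters in both Bcl6 windows, and the IRF and T-box letters in no member window. No match overlapped a match of another motif. The windows of Prdm1 (chr10:44458749-44458998, minus strand), Tbx21 (chr11:97115332-97115581, minus strand) and Bcl6 (chr16:23981284-23981533 and chr16:23988853-23989102, minus strand) are shown because they hold the AP-1 match, the gene with the largest difference between libraries, and the repeated STAT match. They read 5′ to 3′, with the matched letters in capitals; a match describes the letters and is not evidence of binding.
Prdm1: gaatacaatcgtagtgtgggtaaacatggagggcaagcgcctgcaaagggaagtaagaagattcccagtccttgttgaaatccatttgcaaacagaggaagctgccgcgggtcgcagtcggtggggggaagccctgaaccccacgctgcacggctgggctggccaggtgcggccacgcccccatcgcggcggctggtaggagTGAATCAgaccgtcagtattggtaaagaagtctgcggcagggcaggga
Tbx21: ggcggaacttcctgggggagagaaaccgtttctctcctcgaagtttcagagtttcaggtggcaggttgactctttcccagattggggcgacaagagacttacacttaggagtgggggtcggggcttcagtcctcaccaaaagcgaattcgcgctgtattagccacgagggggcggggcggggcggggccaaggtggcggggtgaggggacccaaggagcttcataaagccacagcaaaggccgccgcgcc
Bcl6 inner start: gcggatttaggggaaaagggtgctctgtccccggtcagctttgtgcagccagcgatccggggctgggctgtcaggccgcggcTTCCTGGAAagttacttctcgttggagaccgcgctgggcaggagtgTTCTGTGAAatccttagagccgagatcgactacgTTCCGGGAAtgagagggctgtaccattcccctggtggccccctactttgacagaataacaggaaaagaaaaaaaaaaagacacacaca
Bcl6 outer start: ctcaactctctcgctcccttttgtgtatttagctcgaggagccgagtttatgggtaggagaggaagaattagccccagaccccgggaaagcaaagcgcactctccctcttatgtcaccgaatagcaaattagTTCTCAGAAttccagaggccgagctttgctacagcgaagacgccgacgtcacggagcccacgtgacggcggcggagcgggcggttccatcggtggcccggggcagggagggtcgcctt

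The Prdm1 match begins 48 bases before a start (position -48) that lies inside the annotated gene. The Bcl6 match of the outer start begins at -118, while the inner start of Bcl6 has 3 matches. The Tbx21 window held none of the 5 motifs. All 9 genes are protein coding in GENCODE vM21 (GRCm38). Prdm1 lies at chr10:44437177-44528501, Batf at chr12:85686669-85709087, Irf4 at chr13:30749226-30766976 and Maf at chr8:115682942-115707794. Gata3 lies at chr2:9857078-9890034, Rora at chr9:68653786-69388246, Tbx21 at chr11:97098071-97115331, Bcl6 at chr16:23965052-23988852 and Id2 at chr12:25093799-25097140. The library chemistry does not record strand. Exons of Maf, Gata3, Rora and Bcl6 share 21 to 440 bases with genes that are not in the count table, and how reads there were counted is not given in the sources used here.

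Per kilobase of exon, the scale used here to compare levels between genes, the order of the mean levels was Gata3, Batf, Id2, Irf4, Bcl6, Prdm1, Tbx21, Rora and Maf. Gata3 stood at 64.2 ± 5.81 CPM per kilobase and Batf at 50.2 ± 16.2 (mean ± SD, n = 12 libraries of 4 groups), and Gata3 was the higher in 11 of 12 libraries. Both lay high among the tested genes, at the 93.3 and 90.7 percentiles. Id2 followed at 13.7 ± 9.11 CPM per kilobase, above Irf4 in 11 of 12 libraries. Irf4 (7.05 ± 3.88) and Bcl6 (5.19 ± 0.715) changed order between libraries, with Irf4 the higher in 6 of 12. In the libraries numbered 1, Irf4 stood at 10.8 to 13.2 CPM per kilobase and Bcl6 at 5.04 to 6.33. Irf4 was also the higher in both High libraries of replicate 3, and the lower in the rest. Prdm1 (2.82 ± 1.02), Tbx21 (2.38 ± 2.46) and Rora (2.33 ± 1.11) were close, and Tbx21 exceeded Rora in 3 of 12 libraries although its mean was higher. Maf had the lowest mean, 1.46 ± 1.41 CPM per kilobase, at the 21.9 percentile, and lay below Rora in 12 of 12 libraries. RNA of mixed cells was measured, so fewer cells with a transcript and less transcript per cell cannot be told apart.

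**Figure D1:**
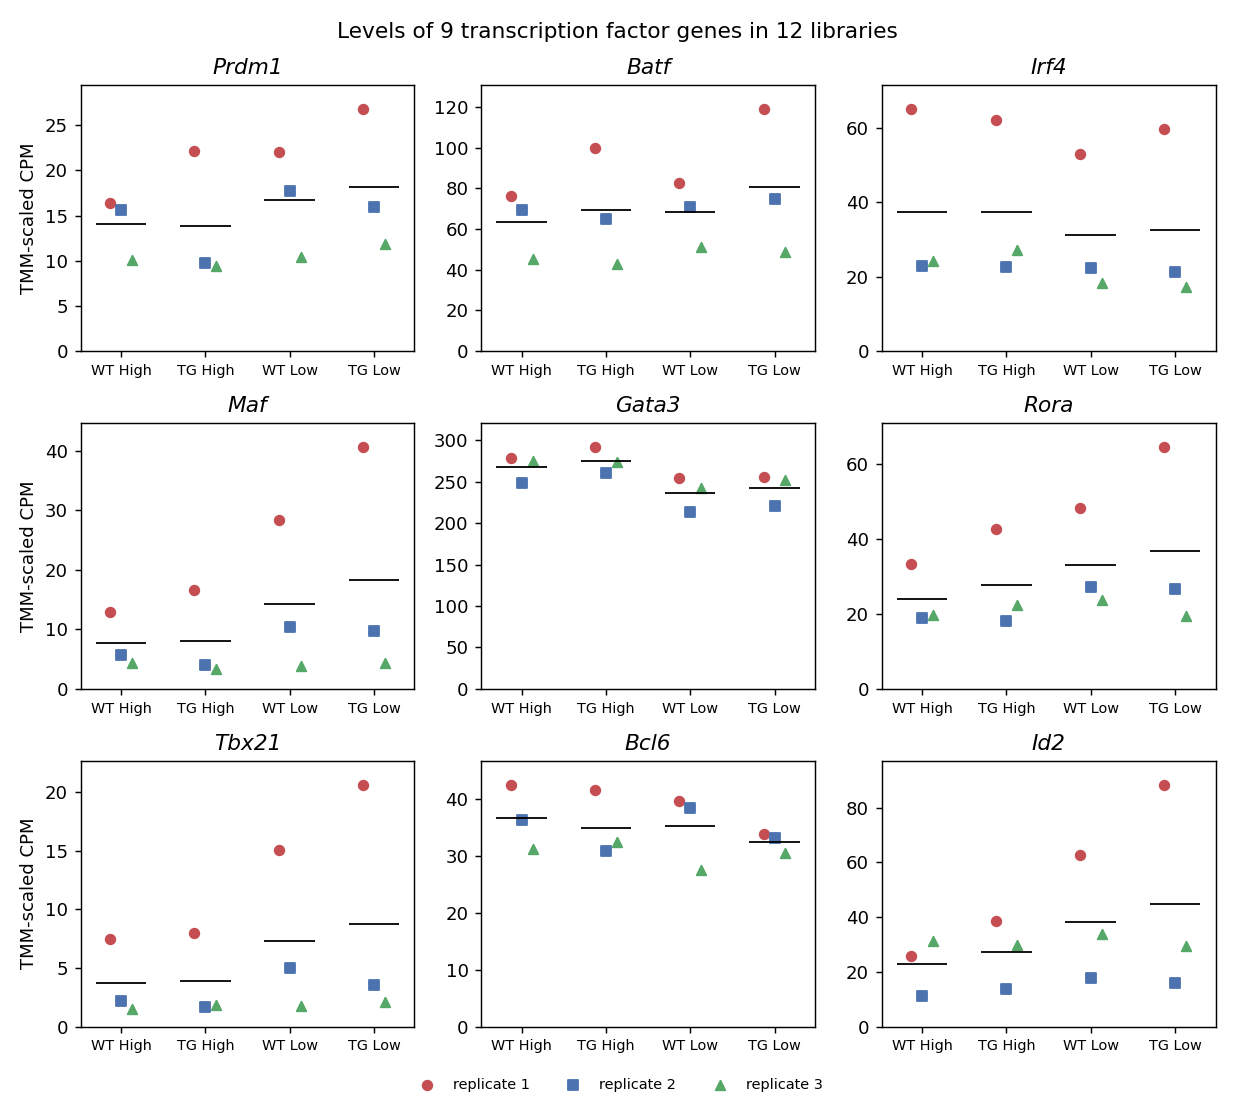
TMM-scaled CPM (y axis, from 0) of the 9 genes in the 4 groups (x axis), with the replicate number by colour and shape and the group mean as a line. Circles (replicate 1) are the highest of their group for every gene but Id2 in WT High, while Gata3 and Bcl6 vary within narrow ranges.

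The effector Treg factors were higher in the libraries numbered 1. Irf4, whose product rises with T cell receptor signalling, stood at 64.9, 22.8 and 24.3 CPM in WT High replicates 1, 2 and 3 and at 62.1, 22.5 and 27.1 in TG High. In WT Low it stood at 52.9, 22.3 and 18.3 CPM and in TG Low at 59.6, 21.2 and 17.1. Every library numbered 1 was above every other library, whatever its genotype or gate. The fitted difference of replicate 1 from the mean of replicates 2 and 3 was 1.45 (log2, SE 0.08, edgeR adjusted p = 3.02e-09), a 2.73-fold higher level.

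Batf, the partner of IRF4 on composite sites, showed the same split with smaller steps. Its levels were 76.2, 69.2 and 45.5 CPM in WT High replicates 1 to 3 and 99.8, 64.7 and 43.0 in TG High. They were 82.8, 71.0 and 51.2 CPM in WT Low and 119, 74.8 and 48.8 in TG Low. The 4 libraries numbered 1 did not overlap the other 8, and replicate 2 was above replicate 3 in 4 of 4 groups. The replicate 1 difference was 0.70 (SE 0.08, edgeR adjusted p = 1.00e-05).

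Prdm1, which encodes the repressor BLIMP-1, was highest in replicate 1 in 4 of 4 groups, but the sets overlapped: 16.45 to 26.8 CPM in the libraries numbered 1 against 9.47 to 17.7 in the others (log2 difference 0.80, SE 0.12, edgeR adjusted p = 1.16e-04). Id2 was highest in replicate 1 in 3 of 4 groups. It stood at 25.9, 11.4 and 31.3 CPM in WT High, 38.5, 13.9 and 30.0 in TG High, 62.9, 17.7 and 33.9 in WT Low and 88.4, 16.0 and 29.6 in TG Low. Replicate 2 was the lowest in every group, as it was for Gata3. The fitted replicate 1 difference of Id2 was 1.24 (SE 0.23, edgeR adjusted p = 0.00545).

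Among the lineage factors, Tbx21 and Maf had the largest differences between libraries. Tbx21 was at 7.50, 2.23 and 1.48 CPM in WT High replicates 1 to 3 and at 8.01, 1.68 and 1.88 in TG High. In WT Low it was at 15.0, 5.02 and 1.76 CPM and in TG Low at 20.6, 3.58 and 2.12. Every library numbered 1 lay above the other 8, and the fitted difference was 2.34 (SE 0.18, edgeR adjusted p = 8.28e-08), a 5.06-fold higher level. Tbx21 rests on few reads where it is low, with 11 counts in TG High replicate 2.

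Maf was at 12.9, 5.73 and 4.31 CPM in WT High, 16.7, 3.98 and 3.38 in TG High, 28.4, 10.4 and 3.82 in WT Low and 40.7, 9.69 and 4.34 in TG Low. The libraries numbered 1 did not overlap the others, and the difference was 2.09 (SE 0.18, edgeR adjusted p = 1.28e-06). Rora, from 33.2 to 64.6 CPM in the libraries numbered 1 and from 18.2 to 27.1 in the others, differed by 1.07 (SE 0.11, edgeR adjusted p = 2.77e-06).

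Bcl6 and Gata3 moved least. Bcl6 ran from 33.8 to 42.4 CPM in the libraries numbered 1 and from 27.5 to 38.3 CPM in the others, with a difference of 0.27 (SE 0.08, edgeR adjusted p = 0.0199). That call ended when WT High, TG High or WT Low replicate 1 was left out (largest edgeR adjusted p = 0.0867). Gata3 differed by 0.12 (SE 0.05, edgeR adjusted p = 0.0819) and was not called, although DESeq2 called it.

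In all, 8 of 9 members were higher in replicate 1, where 16.8% of all tested genes were called higher and 10.7% lower. The median log2 difference was 1.07 over the members and -0.01 over all tested genes. Batf, Irf4, Maf, Rora and Tbx21 had all 4 libraries numbered 1 above the other 8, as did 8.99% of tested genes. Of the variance of log2(CPM + 1) over the 12 libraries, the replicate number took 94.2% for Irf4, 86.4% for Batf, 83.1% for Tbx21 and 80.6% for Maf. It took 64.1% for Bcl6 and 44.3% for Gata3, against a median of 40.6% over the tested genes. Gata3 was the only member for which the gate took a larger share (50.0%, against 44.3% for the number).

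**Figure D2:**
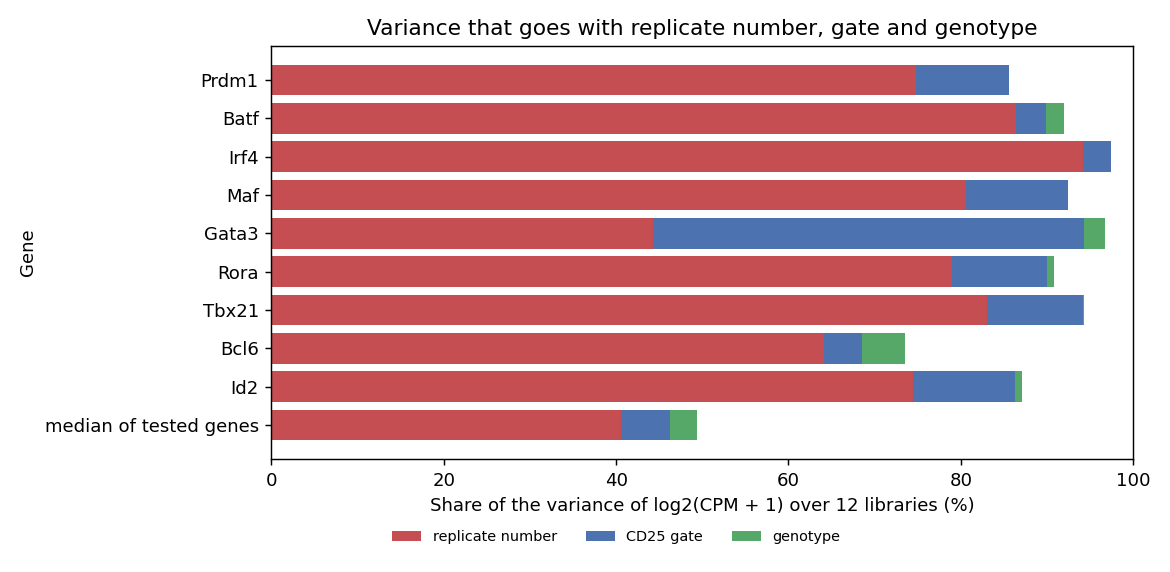
Share of the variance of log2(CPM + 1) over 12 libraries (x axis, percent) that goes with replicate number, gate and genotype, for each member and for the median of each share over the tested genes (the medians are taken separately). The replicate number takes from 44.3% (Gata3) to 94.2% (Irf4), and genotype takes at most 5.03% (Bcl6).

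Many transcripts of other cells were also higher in the libraries numbered 1. The summed level of 15 B cell genes was 247 to 434 CPM there and 64.2 to 138 in the others, with 12 of 14 tested genes called higher. Over all tested genes, 16.8% were called higher there and 10.7% lower by edgeR. The sum of 13 CD8 T or NK cell genes overlapped, at 58.8 to 86.4 CPM against 52.8 to 79.0, with 8 of 10 tested genes higher and 1 lower. In replicates 1, 2 and 3 this sum was 60.8, 62.0 and 59.5 CPM in WT High. In TG High it was 58.8, 62.1 and 59.5. The sum of 16 myeloid or dendritic cell genes was 105 to 238 CPM against 82.7 to 105, with 6 of 8 higher. The sum of 6 plasma cell genes also overlapped, at 168 to 201 CPM against 146 to 199, but DESeq2 called 4 of them higher and 0 lower. The sum of 9 type 2 innate lymphoid or mast cell genes was 11.6 to 16.9 CPM against 2.60 to 5.49. DESeq2 called 2 of these higher and 0 lower. NK cells also express Tbx21 and Id2, and B cells express Irf4 and Bcl6. The part of such cells in the members' differences was not tested.

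Replicates 2 and 3 differed as well, in a comparison added after the data were seen. Batf (-0.57, SE 0.10, edgeR adjusted p = 0.00183), Prdm1 (-0.52, adjusted p = 0.0325) and Maf (-0.85, adjusted p = 0.0351) were lower in replicate 3, while Id2 was higher (1.13, SE 0.28, edgeR adjusted p = 0.0404). That is 3 of 9 members lower, where 6.43% of tested genes were called lower, and 1 higher, where 5.99% were. The Batf call held in 12 of 12 fits that left out 1 library, and those of Prdm1, Maf and Id2 in 5, 4 and 3. Of 14 tested B cell genes 7 were lower in replicate 3 too.

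The gate comparison asks which of these factors go with the surface level of CD25. With the replicate block, Gata3 was higher and Tbx21 and Maf were lower in CD25 High cells, averaged over both genotypes. Rora, Id2 and Prdm1 had negative and Irf4 positive differences that did not pass.

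Gata3 stood at 278, 248 and 275 CPM in WT High replicates 1 to 3 and at 254, 213 and 243 in WT Low. It stood at 292, 260.1 and 274 CPM in TG High and at 255, 220.3 and 252 in TG Low. High was above Low in 6 of 6 pairs of the same genotype and number, and the TG groups did not overlap while the WT groups did. The difference was small and even, from 0.12 to 0.24 per pair (log2), with a fitted value of 0.18 (SE 0.05, edgeR adjusted p = 0.0352 with the block and 0.442 without).

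Each of the 6 pairs had less Tbx21 in the CD25 High library. In WT it was 2.00-fold and 2.25-fold lower in pairs 1 and 2 and 1.19-fold lower in pair 3, and in TG 2.58-fold, 2.13-fold and 1.13-fold lower. Pair 3 differed least in both genotypes. The fitted difference was -0.89 (SE 0.19, edgeR adjusted p = 0.00961 with the block and 0.832 without). Maf was lower in 5 of 6 pairs: 2.20-fold and 1.81-fold in WT pairs 1 and 2, and 2.44-fold, 2.44-fold and 1.29-fold in TG, with WT pair 3 in the other direction (1.13-fold). Its fitted difference was -0.82 (SE 0.18, edgeR adjusted p = 0.0181 with the block and 0.823 without).

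Rora fell short of the threshold (-0.38, SE 0.11, edgeR adjusted p = 0.0504 with the block), with 5 of 6 pairs lower. Irf4 had a higher level in CD25 High in 6 of 6 pairs, from 0.03 to 0.66 on the log2 scale (0.26, SE 0.08, edgeR adjusted p = 0.0928). Prdm1 and Batf had a lower level in 6 of 6 pairs, with differences of -0.30 and -0.16 (edgeR adjusted p = 0.188 and 0.309). Id2 was 2.43-fold and 2.30-fold lower in pair 1 of WT and TG and within 1.08-fold in pair 3 (-0.59, SE 0.22, edgeR adjusted p = 0.216). Bcl6 was higher in 4 of 6 pairs (0.09, SE 0.08, edgeR adjusted p = 0.617).

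**Figure D3:**
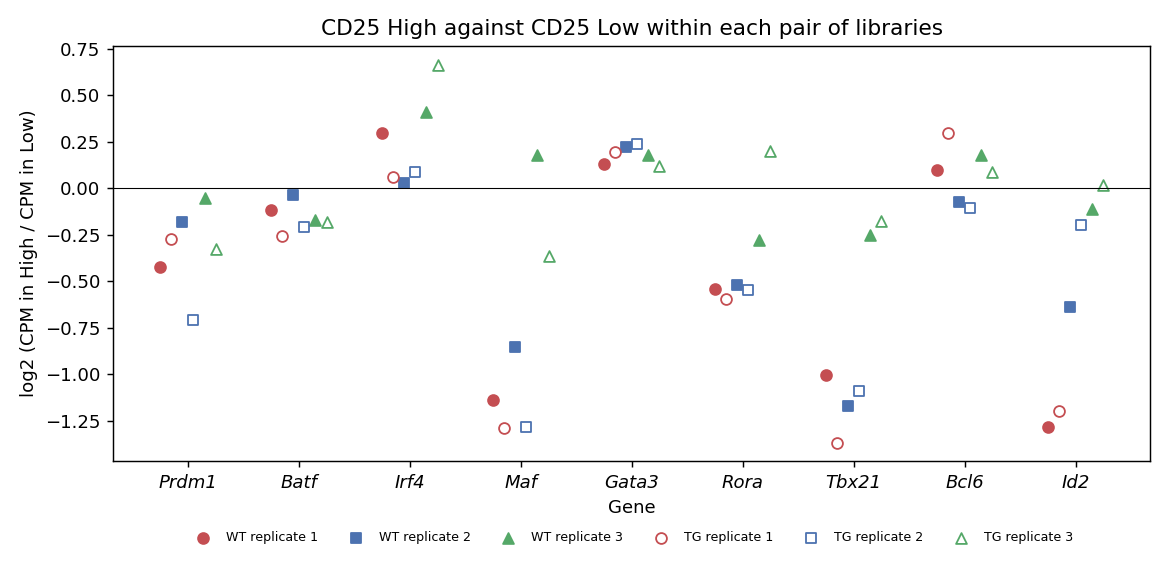
log2 ratio of CPM in CD25 High to CD25 Low (y axis) within each of 6 pairs of libraries that share genotype and replicate number, for each gene (x axis). The 6 Gata3 points lie between 0.12 and 0.24, the Tbx21 points between -1.37 and -0.18 with pair 3 of both genotypes nearest to 0.

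These counts depend on the block. With it, edgeR called 1 of 9 members higher, where 3.26% of all tested genes were, and 2 lower, where 2.63% were (5.88% called in all). Without it edgeR called 0 of 9, where 0.348% of tested genes were called higher and 0.17% lower (0.518% in all). Gata3 alone of the 9 then had an unadjusted p under 0.05, as did 8.68% of all tested genes. DESeq2 without the block called 256 genes in all, 0 of them members. DESeq2 with the block called 816 genes in all, 4 of them members, adding Rora (adjusted p = 0.0253). The calls also rest on the libraries numbered 1. Leaving out TG High replicate 1 or TG Low replicate 1 ended both the Tbx21 and the Maf call, leaving out WT High replicate 1 ended that of Tbx21, and leaving out WT Low replicate 1 that of Maf. Gata3 was called in 2 of 12 such fits, with an estimate of 0.17 to 0.19 throughout. Without all 4 libraries numbered 1, the blocked differences were -0.64 for Tbx21, -0.58 for Maf and 0.19 for Gata3 (edgeR adjusted p = 0.486, 0.344 and 0.336), and no member was called.

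Within one genotype edgeR called 0 of 9 members in WT and 0 of 9 in TG, without the block (0.051% and 0.0085% of tested genes called) or with it (1.63% and 1.68%). Of the tested genes in WT, 0.0425% were called higher without the block, and with it 0.994% were called higher and 0.637% lower. With the block 4 members in WT and 5 in TG had an unadjusted p under 0.05, as did 9.22% and 12.2% of all tested genes. DESeq2 with the block called 270 genes in WT, 0 of them members, and 334 in TG, 1 of them a member (Maf). The blocked Tbx21 difference was -0.88 in WT and -0.90 in TG, and that of Gata3 was 0.18 in both.

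Some transcripts of other cells also differed with the gate. Of 10 tested CD8 T or NK genes 5 were called lower in CD25 High with the block, where 2.63% of all tested genes were. The summed level of the list was 52.8 to 86.4 CPM in the Low and 58.8 to 62.1 in the High libraries. The sum was lower in High in 5 of 6 pairs and higher in WT pair 3 (59.5 against 52.8 CPM). The NK receptor gene Ncr1, chosen after its values were seen, had 164, 43 and 0 counts in WT Low and 90, 8 and 0 in TG Low, against 21, 2 and 0 in WT High and 12, 0 and 0 in TG High. Cd8a, also named after its values were seen, went the other way in 5 of 6 pairs, for example 5.01 against 1.86 CPM in WT pair 3. The myeloid gene Csf1r, chosen likewise, had 303 counts in WT Low replicate 1, 414 in TG Low replicate 1 and 30 or fewer in the other libraries. The part of these cells in the Tbx21 and Maf differences was not tested.

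Genotype, the question of the study, separated none of the 9 genes. Averaged over the gates, edgeR called 0 of 9 members without the block, where 0% of tested genes were called, and 0 of 9 with it, where 0.051% were called. No member had an unadjusted p under 0.05 in either fit, and DESeq2 called none.

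With the block, the 95% interval of the TG minus WT log2 difference was -0.06 to 0.14 for Gata3, -0.15 to 0.20 for Irf4 and -0.04 to 0.30 for Batf. These 3 factors had the narrowest intervals with that of Bcl6. The interval was -0.31 to 0.50 for Tbx21, -0.33 to 0.46 for Maf and -0.36 to 0.68 for Id2, whose spread leaves wider differences possible. Bcl6 differed by -0.08, Prdm1 by 0.02 and Rora by 0.13. TG was above WT in 5 of 6 pairs for Gata3, in 4 of 6 for Tbx21 and in 3 of 6 for Prdm1, Batf, Maf, Rora and Id2, with Irf4 and Bcl6 above in 2 of 6. In replicate 1, TG was above WT in both gates for Tbx21, Prdm1, Batf, Maf, Rora and Id2 (log2 0.09 to 0.57). Gata3 was also above there in both gates, Bcl6 was below in both, and Irf4 was below in High alone. In replicates 2 and 3 the pairs of Tbx21, Prdm1, Batf, Maf, Rora and Id2 went either way.

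In CD25 High cells alone, in CD25 Low cells alone and for the difference between these genotype effects, edgeR likewise called 0 of 9 members with and without the block, where 0% of tested genes were called. None had an unadjusted p under 0.05, and DESeq2 called none. The blocked TG minus WT difference of Maf was -0.11 in High and 0.23 in Low, and that of Batf 0.08 and 0.18.

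**Figure D4:**
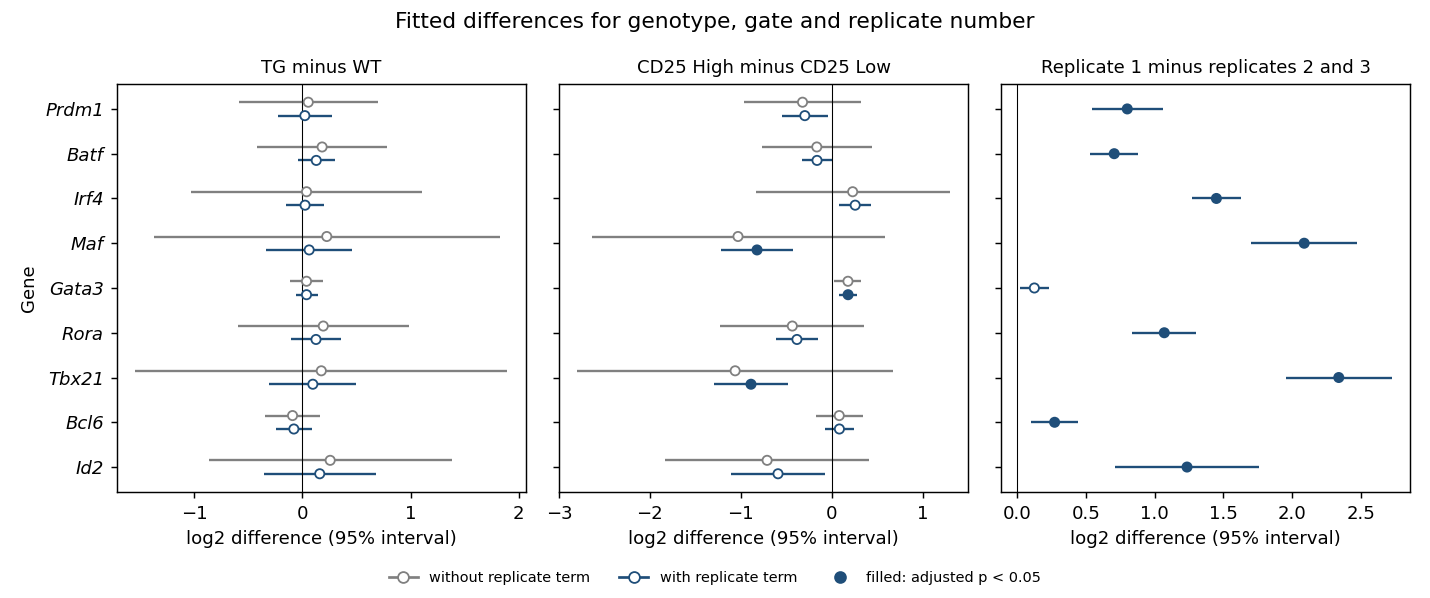
Fitted log2 differences with 95% intervals (x axes, each panel with its own range) for genotype averaged over gates, gate averaged over genotypes, and replicate 1 against 2 and 3, for the 9 genes (y axis); grey is the fit without and blue the fit with the replicate number. No genotype point is filled, 3 gate points are (Maf, Gata3, Tbx21, blocked fit), and 8 replicate points are (all but Gata3).

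Genes that go with these factors were counted from lists of their programmes. The lists overlap, and all of them, like the 9 members, were chosen with earlier results of these libraries known, so no direction given for them is independent evidence. The gate counts below are from edgeR with the block, where 3.26% of all tested genes were called higher and 2.63% lower. For replicate 1 these shares were 16.8% and 10.7%. Without the block 1 type 1 gene (Fasl, lower) was called with the gate. No gene of the type 2, type 17, follicular helper, effector Treg and related factor lists was. At an unadjusted p under 0.05 these 5 lists then held 0, 0, 2, 8 and 1 genes. DESeq2 without the block called 0, 0, 2, 2 and 0 of them, and 2 type 1 genes. Of 15 tested type 1 genes, which include targets of T-bet, 12 were higher and 1 was lower in replicate 1, and 6 were lower in CD25 High with the block. Among the latter were Cxcr3, a chemokine receptor of type 1 cells (-1.40, SE 0.14), Fasl (-1.28), Il18r1 (-0.64) and Cxcr6 (-1.90; edgeR adjusted p = 0.0248). Cxcr3 stood at 27.0, 10.1 and 1.83 CPM in WT High replicates 1 to 3, 39.7, 6.89 and 2.49 in TG High, 72.6, 27.8 and 5.23 in WT Low and 101, 20.2 and 6.57 in TG Low.

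Of 10 tested type 2 genes 8 were higher and 1 was lower in replicate 1. With the gate they split: Il9r (-1.17), Ccr3 (-1.61) and Ccr4 (-0.94) were lower, while Penk (0.70) was among 2 genes higher in CD25 High by edgeR with the block. Gata3 was higher in CD25 High. Of 6 tested type 17 genes 6 were higher in replicate 1, and 1 was lower in CD25 High, Ccr2 (-1.15). Of 11 tested follicular helper genes 5 were higher and 2 lower in replicate 1, and Cd40lg (-0.59) and Il6ra (-0.28) were lower and Cd200 (0.34) higher in CD25 High. These gate counts stand beside 3.26% of all tested genes called higher and 2.63% lower.

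Of 30 effector Treg genes 27 were higher in replicate 1, with a summed level of 4978 to 6432 CPM against 2743 to 3521 in the other libraries. Cell cycle genes were higher in 20 of 20 cases, and 12 of 18 resting T cell genes were lower. With the gate, by edgeR with the block, 11 of 30 effector Treg genes were higher, Tnfrsf4 (0.63) and Cd83 (0.71) among them, and 6 lower, Itgb1 (-0.65) and Cxcr3 among them, and the median was 0.01. Of 37 tested related transcription factors 12 were higher and 10 lower in replicate 1, the higher ones including Bhlhe40 (1.56), Irf8 (0.99), Tox2 (3.40) and Zeb2 (4.38). The last 2 rest on few reads, with 2 to 36 counts of Tox2 and 0 to 6 of Zeb2 in the libraries not numbered 1. With the gate 2 related factors were higher, Myc (0.32) and E2f2 (0.24), and 3 lower, among them Satb1 (-0.21) and Zfpm1 (-0.45). Over all tested genes, 3.26% were called higher with the gate and 2.63% lower.

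For genotype averaged over the gates with the block, 1 gene was called among these programmes, Il9r (0.80 higher in TG, SE 0.13, edgeR adjusted p = 0.0484), a receptor listed with the type 2 genes. The B cell gene Cd22 was called as well (1.04 higher in TG, edgeR adjusted p = 0.0220), as 1 of 14 tested genes of its list. Over all tested genes 0.051% were called. Without the 4 libraries numbered 1, no gene was called in this comparison by edgeR with the block. Below the threshold, 29 of 30 effector Treg genes had a positive TG minus WT difference (median 0.23), and 14 had an unadjusted p under 0.05, against 6.64% of all tested genes. They were read in the same 12 libraries, so their directions are not independent. In replicate 2 their summed level was 3508 (WT) and 3521 CPM (TG) in High, and 3356 and 3370 in Low. In replicate 1 it was 4978 and 5492 CPM in High, and 5021 and 6432 in Low. In replicate 3 it was 3251 and 3517 CPM in High, and 2743 and 3192 in Low. All 14 tested B cell genes had a positive difference (median 0.63), 11 of them with an unadjusted p under 0.05. DESeq2 with the block called 3 effector Treg genes, 1 type 2 gene and 2 B cell genes higher in TG. For the 9 members the median was 0.06, with 8 positive and 0 under 0.05. The part of B cells in these differences was not tested.

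Across the 12 libraries, the profiles most like each member were found among 8435 genes of at least 10 CPM by the root mean square difference of centred log2(CPM + 1). Maf was nearest to Ccr4, a chemokine receptor of effector and type 2 cells (0.24), and Tbx21 to Axl (0.28) and Ccr4 (0.29), against spreads of 1.05 for Maf and 1.03 for Tbx21 themselves. The other gene nearest to Maf was Glrx (0.32). Batf was nearest to Ahnak (0.14) and Grn (0.17), and Irf4 to Tacc3, a spindle protein gene (0.17), and Synpo (0.18). Gata3 was nearest to Vps45 and Ergic2 (0.06 each, against its own spread of 0.13). Prdm1 was nearest to Acot11 (0.15) and Gna15 (0.17), and Rora to Gna15 (0.19) and Grn (0.20). Bcl6 was nearest to Mbd4 and Dnmt3a (0.10 each). Id2 was nearest to H1f0 (0.37) and Tnfsf11 (0.41), against a spread of 0.80. The 12 libraries share the split by replicate number, which enters every one of these distances.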

How the data were processed

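RNA of 12 libraries was measured by RNA-seq. The authors' deposited values are raw counts of reads per gene. Per the submitters' processing notes they used CASAVA 1.8.2, STAR 2.4, featureCounts 1.4.6 and GRCm38. Per the labels' protocols, RNA went through SMARTer Ultra Low amplification and Nextera XT, which do not record strand.

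Here, 21628 of 21839 gene IDs were given symbols from GENCODE vM21. Genes were filtered with filterByExpr (minimum count 10), leaving 11766 genes and 99.96% of the counts. All 12 libraries were fitted together with edgeR 4.0.16 (TMM, quasi-likelihood test, R 4.3.3), with Benjamini-Hochberg adjustment over all tested genes and a threshold of 0.05. The scripts were tested on simulated data. DESeq2 1.42.0, other scalings, no filter, fits of only the 6 libraries compared (those with a block added after the data were seen) and leaving out libraries were alternatives. Levels are TMM-scaled CPM, and profiles use log2(CPM + 1).

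Groups and replicate numbers come from the sample titles, which do not say what a number marks. After group means were removed, the 18 pairs of libraries with the same number correlated at 0.39 to 0.84 and the 36 other pairs across groups at -0.67 to 0.19, so the numbers were taken to pair the samples. Removing the mean of 3 libraries lowers the correlations of the other pairs when those of the same number are positive. The gap between these ranges is thus partly set by that step. Replicates of 1 group differed well beyond counting noise (chi-square per degree of freedom at least 22.0).

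The members and lists were chosen with earlier results of these data known. The text names the 9 members, Foxp3, Il2ra and Atg5 as checks, up to 4 called genes of each list with the smallest p, and for each member the 2 genes with the nearest profile. Cd3e, Cd8a, Ncr1 and Csf1r were named after their values were seen.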

Additional observations from a re-analysis of the deposited data

How the results depend on the processing

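Across 2376 values of the 9 members under the alternatives, no call reversed, and 252 differences changed sign without a call in either setting. For the gate averaged over genotypes, edgeR called 0 members, 3 with the replicate block and 4 by DESeq2 with the replicate block. Leaving out 1 library gave 0 to 4. In WT the count was 0, and 2 (Rora, Tbx21) when only the 6 libraries compared were fitted with the block, which called 393 genes in all. In TG it was 0, and 1 (Maf) by DESeq2 with the block (334 genes in all). The TG fit of 6 libraries with the block also gave 1 (Maf), among 196 genes. Leaving out 1 library gave 0 to 1 in TG. Replicate 3 against 2 gave 4 members, 5 by DESeq2 (adding Gata3), 3 with no filter (without Id2), and 1 to 4 when 1 library was left out. Replicate 1 against the others gave 8, and 7 to 9.

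Counts over all genes moved more. The averaged gate gave 61 genes, 692 with the block, 256 by DESeq2, 816 by DESeq2 with the block, and 3 or 177 (without or with the block) without the 4 libraries numbered 1. Leaving out 1 library gave 15 to 75, and 415 to 775 with the block. In WT the same settings gave 6, 192, 48, 270, and 0 or 49, with 0 to 7 and 87 to 247 when 1 library was left out, and the 6 libraries alone gave 1, or 393 with the block. In TG they gave 1, 198, 56, 334, and 0 or 39, with 0 to 3 and 74 to 235, and the 6 libraries alone gave 0, or 196 with the block; upper quartile scaling gave 2 and no filter 3. Genotype averaged over the gates gave 0, 6 with the block (1 to 8 when 1 library was left out) and 38 by DESeq2 with the block, which called 10 in High, 2 in Low and 2 for the difference. In Low the 6 libraries with the block gave 3. Leaving out 1 library moved the replicate 1 count from 3239 to between 2081 and 3958, and that of replicate 3 against 2 from 1462 to between 647 and 1368. The causes were not tested. Of the members, Tbx21 and Maf had the fewest reads in their lowest library, with 11 and 26 counts in TG High replicate 2.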
